A study of Rattus norvegicus with 21 samples.

Results

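Livers of 3 male Sprague-Dawley rats given 1500 mg/kg piperonyl butoxide (PBO) were compared with livers of 3 given 1000 mg/kg, the last step of a dose series, on short oligonucleotide arrays. The 6 arrays were chosen by the dose in their titles, out of 21 in the series, and all 31042 probe sets other than array controls were considered. PBO was given by mouth for 7 days. The same fit held 3 rats at 500 mg/kg and 3 that received 0.5% methyl cellulose by mouth without PBO (0 mg/kg). All these rats were male Sprague-Dawley, their livers were stored in RNAlater, and the labels call the replicates biological; the sources used here state no age. Of the 12 hepatocyte markers, 11 were measured above the filter on low values. Their summed signal was 332720 to 352080 at 1000 mg/kg and 301130 to 343600 at 1500 mg/kg. Albumin (Alb) had signals of 56346, 51249.7 and 53606 at 1000 mg/kg and 52466, 61872 and 54397 at 1500 mg/kg. The median signal of these 6 arrays was 94.3 to 106.0, so the liver label was borne out by high hepatocyte markers.

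PBO is an insecticide synergist that blocks cytochrome P450 enzymes and, in rodent liver, also induces them. In hepatocytes, drug-sensing nuclear receptors such as CAR and PXR raise P450 and transporter genes, the aryl hydrocarbon receptor raises Cyp1 genes, NRF2 raises glutathione and antioxidant enzymes, and PPARalpha raises genes that handle fatty acids. Secreted plasma proteins, complement and clotting factors are made mainly by hepatocytes, and male-type liver metabolism depends on growth hormone.

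Across 18625 probe sets tested with limma, 224 (1.20%) passed a Benjamini-Hochberg adjusted p of 0.05 between the 2 doses, 114 higher (0.612%) and 110 lower (0.591%) at 1500 mg/kg. At least a 2-fold change was seen in 53 of the higher and 52 of the lower ones. With 1 probe set per gene, 156 of 10670 genes (1.46%) passed, of which 84 rose (0.787%) and 72 fell (0.675%). The 3 and 3 arrays did not overlap in any of the 224, while they did not overlap in 4004 probe sets overall (21.5%). A change is the difference of group means of log2(signal + 16), given with its standard error from the fit, and it is too small for genes with low signal. The test takes 1 spread per probe set from all 12 PBO arrays, for each dose alike. The 1500 mg/kg arrays deviated more from their group mean than the other PBO arrays, as given below. Standard errors and p of the step can therefore be too small, above all where the 1500 mg/kg arrays lie far apart. At an unadjusted p under 0.05 were 3401 of the 18625 probe sets, to be set beside the unadjusted counts of list members below. With only the 6 arrays of these doses, limma passed 0 probe sets, with 2323 at an unadjusted p under 0.05. Without 1 array, the count was 63, 13 and 83 when 1000 mg/kg replicate 1, 2 or 3 was left out, 248, 924 and 310 without 1500 mg/kg replicate 1, 2 or 3, 142, 129 and 167 without 500 mg/kg replicate 1, 2 or 3, and 126, 124 and 143 without 0 mg/kg replicate 1, 2 or 3. Below, beside a group of genes, it is stated how many of the 6 fits that each left out 1 of the 6 compared arrays kept the call.

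Replicate 3 of 1500 mg/kg stood apart. It lay outside the range of the other 11 PBO arrays in 8364 probe sets (44.9%), 3624 higher and 4740 lower, against 10.4% to 21.0% for the others. The root mean square deviation from the group mean was 0.495 log2 for this array, 0.355 and 0.368 for replicates 1 and 2, and 0.276 to 0.313 for other PBO arrays. Without it, 310 probe sets (1.66%) passed, 117 higher (0.628%) and 193 lower (1.04%), and 184 of the 224 were among them, while 38 were lost and 2 fell below the filter. All 222 that could be refitted kept their direction, 190 of them with a smaller change, and the 310 held 213 of 10599 genes (2.01%). The median ratio of the change without to with this array was 0.86. It was the array farthest from 1000 mg/kg in 171 of the 224. For genes that passed, the change without replicate 3 is given as well. Of genes, 0.877% rose and 1.13% fell without it, the shares to set beside list counts given without replicate 3.

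**Figure D1:**
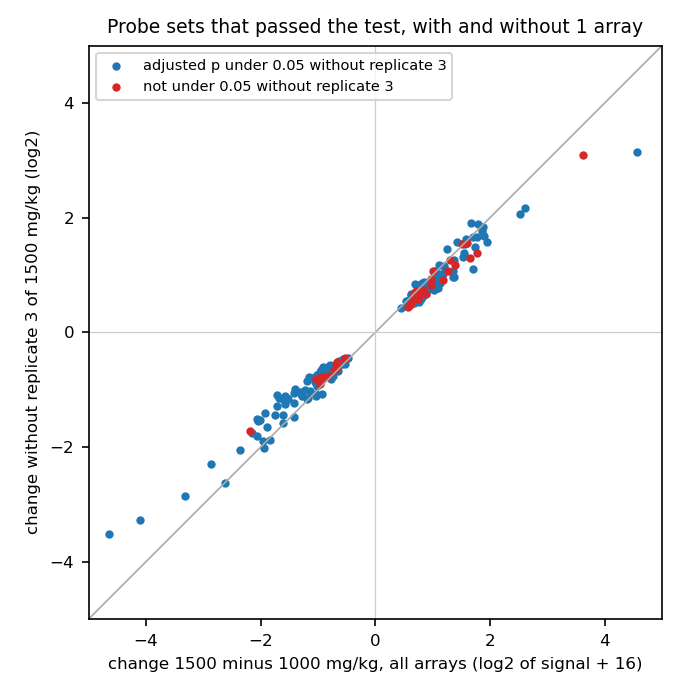
Change from 1000 to 1500 mg/kg (log2 of signal + 16) for 222 probe sets that passed with all arrays, on the horizontal axis, against the change without replicate 3 of 1500 mg/kg, on the vertical axis; the line marks equal values. Points of both colours lie in the same direction on both axes, 184 pass both times and 38 do not, and most large changes are smaller without this array.

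Among genes of fatty acid handling, 4 of the 39 measured members of the PPARalpha list rose and none fell, beside 0.787% and 0.675% of all genes tested. The largest rise of the comparison was Acot1, a cytosolic acyl-CoA thioesterase, with signals of 43.9, 63.5 and 68.0 at 1000 mg/kg and 1554, 252 and 12669.9 at 1500 mg/kg. The groups did not overlap, replicate 3 was by far the highest and replicate 2 the lowest of the 1500 mg/kg arrays. Its change was 4.57 ± 0.93, adjusted p = 0.0352 by limma, and 3.14 without replicate 3 (adjusted p = 0.0171). The other 3 were Hadhb, a subunit of the mitochondrial trifunctional protein, Vnn1, a pantetheinase, and Ech1, a peroxisomal and mitochondrial isomerase of fatty acid oxidation: Hadhb (0.58 ± 0.09, 0.0134), Vnn1 (1.02 ± 0.19, 0.0258) and Ech1 (0.74 ± 0.15, 0.0406). Without replicate 3 they were 0.55, 0.88 and 0.60, and Ech1 no longer passed (adjusted p = 0.0527), while Cpt1a, the carnitine palmitoyltransferase that admits fatty acids to mitochondria, then passed at -0.95 (adjusted p = 0.0445; 0.01 with all arrays). At 1000 mg/kg they already stood 0.46, 2.21 and 1.02 above 0 mg/kg, a comparison that shares the 1000 mg/kg arrays with the step. The median change of the list was 0.46, or 0.23 without replicate 3, beside 0.00 and 0.02 for all genes tested. Per array, the list's median at 1500 mg/kg was 0.31, 0.11 and 0.83 above the 1000 mg/kg mean, so the highest value came from replicate 3. Of the 6 fits without 1 array, 5 fits kept Hadhb (highest adjusted p 0.0869), 4 kept Vnn1 (highest adjusted p 0.134), 2 kept Acot1 (highest adjusted p 0.136), 1 kept Ech1 (highest adjusted p 0.141).

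Antioxidant and glutathione genes of the NRF2 list rose in 4 of 25 measured members and fell in none, beside 0.787% and 0.675% of genes tested. Gstm3, a glutathione S-transferase, had signals of 2351, 924 and 863 at 1000 mg/kg and 6075, 4441 and 13600.3 at 1500 mg/kg, with no overlap. The other 3 were Ggt1, a gamma-glutamyl transferase that breaks down glutathione outside the cell, Hmox1, the haem-degrading enzyme, and Gsr, which regenerates glutathione. Changes were Gstm3 (2.52 ± 0.43, 0.018), Ggt1 (1.42 ± 0.22, 0.0132), Hmox1 (1.58 ± 0.33, 0.0389) and Gsr (0.83 ± 0.17, 0.0397) with their standard errors and adjusted p. Without replicate 3 they were 2.06, 1.58, 1.62 and 0.64, and all 4 stayed past the threshold. At 1000 mg/kg these genes already stood 3.32, 3.68, 0.39 and 1.59 above 0 mg/kg, a comparison that shares the 1000 mg/kg arrays with the step. Hmox1 was 2850.2, 3124 and 2748 at 1500 mg/kg, replicate 3 being the lowest of them, against 1449, 758 and 808 at 1000 mg/kg. The median of the list was 0.45, or 0.32 without replicate 3. Nqo1, a quinone reductase, was 14074, 13430.3 and 13784 at 1000 mg/kg and 9396, 15543 and 11618 at 1500 mg/kg, a change of -0.21 ± 0.24, adjusted p = 0.7 that did not pass. When each array was left out, 4 fits kept Gstm3 and Ggt1 (highest adjusted p 0.103 and 0.0816), 3 kept Hmox1 and Gsr (highest adjusted p 0.154 and 0.156).

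No measured member of the drug-receptor lists passed in this step. Of 24 CAR and PXR targets limma passed 0 in either direction (8 at an unadjusted p under 0.05), with a median of 0.24, and of 6 aryl hydrocarbon receptor targets 0 (1 unadjusted). Arrays did not overlap in 6 of the 24, all higher and 0 lower, beside 12.4% and 11.1% of genes tested. Not measured were 7 of 31 CAR and PXR and 4 of 10 aryl hydrocarbon receptor targets. The fixed gene Cyp2b1 was not measured either. Cyp3a23-3a1, the main PXR-induced P450, was 46593, 42032 and 47617 at 1000 mg/kg and 42638, 47019 and 40917 at 1500 mg/kg, a change of -0.06 ± 0.10, adjusted p = 0.79, which turned to 0.06 with quantile normalization; against 0 mg/kg it was 0.82 at 500 mg/kg and 0.80 at 1000 mg/kg. Abcc3, an efflux transporter, was 0.54 ± 0.29 in the step and 5.11 at 1000 against 0 mg/kg. Cyp1a1, the classic aryl hydrocarbon receptor target, was 1731, 482 and 2742 at 1000 mg/kg and 12105, 3668 and 12155 at 1500 mg/kg, and did not overlap. Its change of 2.61 ± 0.62, adjusted p = 0.0587 missed the threshold, as it did without replicate 3 (2.32, adjusted p = 0.106). Cyp1a2 was 28474, 24956 and 41138 at 1000 mg/kg and 37729.8, 29707 and 14711 at 1500 mg/kg, overlapping, with a change of -0.28 ± 0.27, adjusted p = 0.633, and its sign turned without replicate 3 (0.12).

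**Figure D2:**
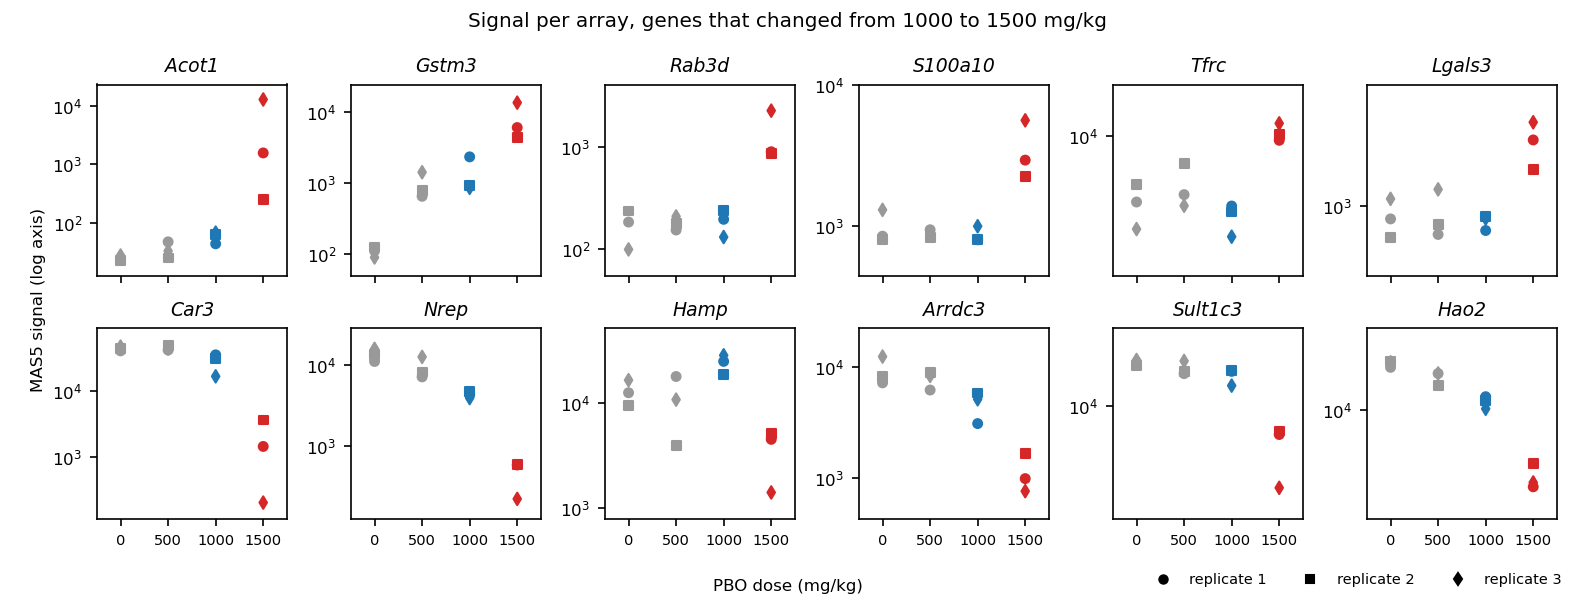
MAS5 signal per array (log axis, vertical) at each PBO dose (horizontal), for 12 genes that passed the test between 1000 (blue) and 1500 mg/kg (red), with 0 and 500 mg/kg in grey and a marker for each replicate number. The upper row rose and the lower row fell, the red and blue points do not overlap in any panel, and replicate 3 (diamond) is the highest red point in each upper panel.

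All 30 measured subunits of the proteasome, the complex that degrades proteins, had a change above 0, beside 5342 of 10670 genes tested. Of these 4 rose, beside 0.787% of genes tested, namely Psma2 (0.68 ± 0.12, 0.0245), Psmb4 (0.53 ± 0.11, 0.0352), Psmc4 (0.74 ± 0.14, 0.0313) and Psmc5 (0.68 ± 0.14, 0.0328). Each is given with its standard error and adjusted p. In 23 of the 30 the arrays did not overlap, against 12.4% of genes tested. The median of the list was 0.46, or 0.30 without replicate 3. Per array it was 0.34, 0.26 and 0.77 above the 1000 mg/kg mean. The list's median change was already 0.53 at 1000 against 0 mg/kg, and 0.28 from 500 to 1000 mg/kg. Both of these comparisons share the 1000 mg/kg arrays with the step. Psma2 had signals of 8750.3, 7889.6 and 8682 at 1000 mg/kg and 12053, 12095 and 16789 at 1500 mg/kg, without overlap and with replicate 3 highest. Without replicate 3 the 4 changes were 0.52, 0.46, 0.56 and 0.52. With 1 array left out in turn, 3 fits kept Psma2, Psmb4, Psmc4 and Psmc5 (highest adjusted p 0.121, 0.148, 0.146 and 0.139).

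The next list joins genes of the cytoskeleton with genes of hepatocytes that lose their specialised state. Of its 26 measured members 4 rose and none fell, beside 0.787% and 0.675% of genes tested. Afp and Krt19, also on this list, did not pass and are given further below. Pfn2, a profilin that binds actin, was 477, 282 and 369 at 1000 mg/kg and 1271, 1116 and 1527 at 1500 mg/kg, without overlap. S100a10, a partner of annexin A2, was 792, 795 and 989 at 1000 mg/kg and 2925, 2242 and 5619.5 at 1500 mg/kg. Its groups did not overlap either, and replicate 3 was the highest in both genes. Lgals3, the sugar-binding galectin-3, was 682, 849.7 and 822 at 1000 mg/kg and 2794, 1773 and 3681 at 1500 mg/kg, and Krt8, an intermediate filament keratin, was 7151, 6815 and 6902 at 1000 mg/kg and 12599, 11947 and 20091 at 1500 mg/kg. Both were again without overlap. Changes were Pfn2 (1.77 ± 0.23, 0.0069), S100a10 (1.94 ± 0.28, 0.00937), Lgals3 (1.73 ± 0.30, 0.0182) and Krt8 (1.05 ± 0.17, 0.0133). Without replicate 3 they were 1.65, 1.57, 1.49 and 0.82, and the list's median went from 0.53 to 0.62. At 1000 against 0 mg/kg the 4 genes stood at 2.40, -0.16, -0.07 and 0.60, a comparison that shares the 1000 mg/kg arrays with the step. Of the 6 fits without 1 array, 6 fits kept Pfn2, 5 kept S100a10 (highest adjusted p 0.0629), 4 kept Krt8 (highest adjusted p 0.0797), 3 kept Lgals3 (highest adjusted p 0.0816).

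All 39 measured cell cycle genes had a change above 0, beside 5342 of 10670 genes tested. In 18 the arrays did not overlap, against 12.4% of genes tested, and 2 rose by the test, against 0.787%. Tk1, a thymidine kinase, was 764, 684 and 733 at 1000 mg/kg and 1513, 1206 and 2052 at 1500 mg/kg, and Gmnn, the replication licensing inhibitor geminin, was 18.8, 14.7 and 21.3 at 1000 mg/kg and 124, 149 and 216 at 1500 mg/kg; neither overlapped. Their changes were Tk1 (1.08 ± 0.18, 0.0166) and Gmnn (2.36 ± 0.51, 0.0456). Without replicate 3 Tk1 was 0.88 and still passed, the only member that did, and Gmnn fell below the filter. The list's median was 0.91, or 0.80 without replicate 3, and 1.02, 0.49 and 1.19 per array at 1500 mg/kg relative to the 1000 mg/kg mean. The vehicle arrays were at 0.63, 0.59 and 1.05 on that scale and the 500 mg/kg arrays at -0.11, -0.09 and 0.05. The 0 and 1500 mg/kg arrays overlapped, and both lay above the 500 mg/kg arrays. Mki67, a marker of dividing cells, was 49.0, 83.2 and 124 at 1000 mg/kg and 256, 169.9 and 145 at 1500 mg/kg, a change of 1.06 ± 0.36, adjusted p = 0.145 that did not pass. Ccnd1, cyclin D1, was 1462, 374 and 8798 at 1500 mg/kg, a change of 1.70 ± 0.81 with all arrays and 0.52 without replicate 3. When each array was left out, 3 fits kept Tk1 (highest adjusted p 0.0981), 0 kept Gmnn (highest adjusted p 0.148).

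**Figure D3:**
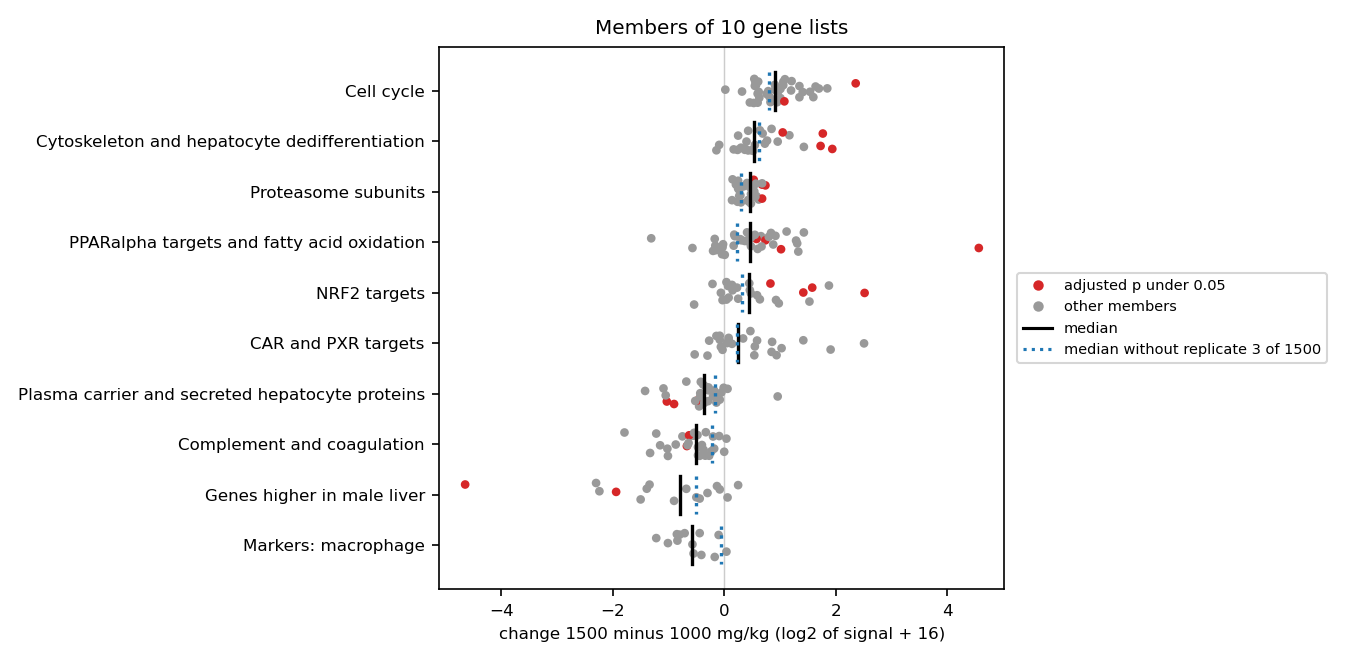
Change from 1000 to 1500 mg/kg (log2 of signal + 16, horizontal) of each measured member of 10 gene lists, red where the adjusted p was under 0.05. Black bars are medians with all arrays and dotted bars medians without replicate 3 of 1500 mg/kg; the medians of the upper 6 lists lie to the right of 0 and those of the lower 4 to the left.

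Iron uptake and its hormone changed in opposite directions. Hamp, the gene of the liver hormone hepcidin, which lowers iron export and is raised by BMP signals, had signals of 24568, 18516 and 28041 at 1000 mg/kg and 4496, 5060.3 and 1413 at 1500 mg/kg. The groups did not overlap and replicate 3 was the lowest. Its change was -2.87 ± 0.51, adjusted p = 0.0234, and -2.29 without replicate 3. Tfrc, the transferrin receptor that imports iron, was 3444, 3144 and 2166 at 1000 mg/kg and 9302, 10168 and 12013 at 1500 mg/kg, again without overlap, a rise of 1.86 ± 0.27, adjusted p = 0.00937, or 1.76 without replicate 3. From 500 to 1000 mg/kg both had moved the other way, Hamp by 1.36 and Tfrc by -0.66, neither past the threshold. At 1000 against 0 mg/kg they stood at 0.91 and -0.285. Both comparisons share the 1000 mg/kg arrays with the last step. Id4, an inhibitor of helix-loop-helix factors, was 3477, 7043 and 6656 at 1000 mg/kg and 1579, 1696 and 624 at 1500 mg/kg, a change of -2.19 ± 0.48, adjusted p = 0.0474, which did not pass without replicate 3 (-1.73, adjusted p = 0.0782). The 2 other Id4 probe sets that passed, at -1.72 and -1.52 (adjusted p = 0.0233 and 0.0254), also passed without replicate 3 at -1.28 and -1.16 (0.00641 and 0.0163). With 1 array left out in turn, 5 fits kept Tfrc (highest adjusted p 0.0519), 3 kept Hamp (highest adjusted p 0.0825), 1 kept Id4 (highest adjusted p 0.175). The start-site windows of Hamp and Tfrc are shown because a BMP response element core, GGCGCC (its own reverse complement, so both strands are covered by 1 search), was found in both and in that of Id4. In the RefSeq windows of GRCr8, 250 bases before to 50 after the start, it is in capitals.
Hamp, chr1:95300222-95300521, minus strand: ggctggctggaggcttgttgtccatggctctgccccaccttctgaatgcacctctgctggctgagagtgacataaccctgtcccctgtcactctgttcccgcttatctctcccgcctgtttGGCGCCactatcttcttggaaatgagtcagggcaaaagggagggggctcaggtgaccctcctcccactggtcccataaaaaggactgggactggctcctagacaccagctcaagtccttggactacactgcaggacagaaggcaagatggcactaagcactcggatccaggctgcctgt
Tfrc, chr11:81690269-81690568, minus strand: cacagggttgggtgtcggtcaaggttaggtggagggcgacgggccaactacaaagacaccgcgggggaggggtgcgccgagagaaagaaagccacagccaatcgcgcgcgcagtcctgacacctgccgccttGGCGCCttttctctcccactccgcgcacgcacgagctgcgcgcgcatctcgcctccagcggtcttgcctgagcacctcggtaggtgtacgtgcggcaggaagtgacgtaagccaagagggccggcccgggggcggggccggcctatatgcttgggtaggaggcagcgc
The first base of the motif was at -129 in Hamp, -118 in Tfrc and 38 in Id4, counted with the start base as 0. The motif was present in 15 of 71 rising genes with a window (21.1%), 9 of 57 falling genes (15.8%) and 21.1% of the 8928 genes tested that had one (11.8% of all 27457 windows), so its share among changed genes was no higher than among genes tested. Antioxidant and xenobiotic response element cores were searched as well. The antioxidant core was in 18.3% of rising, 15.8% of falling and 14.7% of tested genes with a window. The xenobiotic core was in 53.5%, 40.4% and 49.6% of them, Tfrc among the rising ones. These shares were not tested.

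Other genes in the 12 largest rises were Rab3d, a small GTPase of secretory vesicles, Duoxa1, which matures dual oxidases, Pmp22, a membrane protein of myelin, Lrrc51 and C1h11orf24. Rab3d was 196, 239 and 132 at 1000 mg/kg and 895, 865 and 2256 at 1500 mg/kg, without overlap, with replicates 1 and 2 close to each other and replicate 3 highest. Duoxa1 was 153, 7.19 and 9.63 at 1000 mg/kg and 606, 236 and 1153 at 1500 mg/kg; its groups did not overlap, and replicate 1 was far above the others at 1000 mg/kg. Lrrc51 was 335, 244 and 232 at 1000 mg/kg and 988, 778 and 962 at 1500 mg/kg, without overlap, and its replicate 3 did not stand apart. Their changes were Rab3d (2.61 ± 0.37, 0.00937), Duoxa1 (3.61 ± 0.78, 0.0456), Pmp22 (1.70 ± 0.37, 0.0456), Lrrc51 (1.70 ± 0.22, 0.00816) and C1h11orf24 (2.52 ± 0.53, 0.0409). Without replicate 3 they were 2.17, 3.09, 1.10 and 1.66 for the first 4, and Duoxa1 no longer passed (adjusted p = 0.0813), while C1h11orf24 fell below the filter. Of the 6 fits without 1 array, 6 fits kept Rab3d, 5 kept Lrrc51 (highest adjusted p 0.0507), 3 kept Pmp22 (highest adjusted p 0.148), 2 kept Duoxa1 (highest adjusted p 0.172), 1 kept C1h11orf24 (highest adjusted p 0.128).

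Genes higher in male than in female liver, which depend on growth hormone, fell in 2 of 16 measured members, beside 0.675% of genes tested, and none rose. Without replicate 3, 5 fell. Car3, the abundant liver carbonic anhydrase III, had signals of 35018, 31066 and 16537 at 1000 mg/kg and 1428, 3606 and 201 at 1500 mg/kg. The groups did not overlap, with replicate 3 lowest, and Car3 had the largest fall of the comparison, -4.65 ± 0.70, adjusted p = 0.00989, or -3.52 without replicate 3. Ust5r, an organic anion transporter-like protein, changed by -1.94 ± 0.21, adjusted p = 0.00207 (-2.01 without replicate 3), with 5967, 6507 and 4261 at 1000 mg/kg and 988, 1845 and 1579 at 1500 mg/kg, and its replicate 3 did not stand apart. Cyp2c11, the main male-specific P450, was 30311, 28735 and 11742 at 1000 mg/kg and 5366, 7461 and 14123 at 1500 mg/kg with overlapping groups; its change of -1.39 ± 0.35, adjusted p = 0.0697 did not pass with all arrays and passed without replicate 3 (-1.78, adjusted p = 0.0107). The list's median was -0.79, or -0.50 without replicate 3. Genes higher in female liver also had a median below 0, at -0.28, or -0.13 without replicate 3. Changes below 0 were seen in 14 of 16 male and 7 of 10 female genes, beside 5328 of 10670 genes tested. When each array was left out, 6 fits kept Ust5r, 5 kept Car3 (highest adjusted p 0.0659). In the growth hormone and IGF list limma passed 0 of 19 (7 at an unadjusted p under 0.05) with 1 probe set per gene, and 3 fell without replicate 3. Ghr, the growth hormone receptor, was 8635, 8242 and 8258 at 1000 mg/kg and 3115, 4641 and 895 at 1500 mg/kg, without overlap, at -1.83 ± 0.41, adjusted p = 0.0502, and Igf1, the growth factor it controls, was -1.05 ± 0.29 (adjusted p = 0.0939), or -1.14 and -0.57 without replicate 3 (adjusted p = 0.00169 and 0.0371). Besides, 2 other Igf1 probe sets passed and fell, at -1.93 and -1.68 (adjusted p = 0.0149 and 0.0318), and at -1.41 and -1.14 without replicate 3 (0.000307 and 0.00185).

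Among genes of amino acid and small-molecule metabolism, Hao2, a peroxisomal hydroxyacid oxidase, had the smallest adjusted p of the named falls: 12652, 11830.4 and 10179 at 1000 mg/kg and 2494, 3822 and 2698 at 1500 mg/kg, a change of -1.96 ± 0.15, adjusted p = 0.000243, and -1.89 without replicate 3. Its groups did not overlap and it stayed past the threshold in all 6 fits that left out 1 array. It was also the only 1 of 10 measured genes higher in female liver that fell with all arrays, and 2 fell without replicate 3. Beside this and the list counts that follow, 0.675% of genes tested fell with all arrays and 1.13% without replicate 3. Sult1c3, a sulfotransferase, was 18972, 19136 and 14543 at 1000 mg/kg and 5861, 6249.5 and 2175 at 1500 mg/kg, a change of -2.01 ± 0.30, adjusted p = 0.00937 (-1.52 without replicate 3), with replicate 3 lowest. Kynu, kynureninase of tryptophan breakdown, Dpys, dihydropyrimidinase, and Prodh2, a proline and hydroxyproline dehydrogenase, were the 3 of 35 members of the gluconeogenesis and amino acid list that fell: Kynu (-0.71 ± 0.10, 0.00937), Dpys (-0.81 ± 0.16, 0.029) and Prodh2 (-1.19 ± 0.25, 0.041). Without replicate 3 these were -0.65, -0.58 and -0.84, and 6 members of that list fell. Fmo4, a flavin monooxygenase, fell as well (-0.85 ± 0.16, adjusted p = 0.0287; -0.72 without replicate 3), while its other probe set was at -0.02. Slc10a1, the bile salt uptake transporter of hepatocytes, was 22925, 23051 and 25201 at 1000 mg/kg and 13126, 16447 and 10473 at 1500 mg/kg, without overlap, a change of -0.85 ± 0.13, adjusted p = 0.0128 (-0.69 without replicate 3) and the only 1 of 21 measured bile acid genes that fell. With 1 array left out in turn, 6 fits kept Hao2, 5 kept Sult1c3 and Kynu (highest adjusted p 0.0658 and 0.0629), 4 kept Fmo4 and Slc10a1 (highest adjusted p 0.141 and 0.0658), 3 kept Dpys (highest adjusted p 0.123), 2 kept Prodh2 (highest adjusted p 0.134).

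Genes for proteins that hepatocytes secrete into plasma fell in 3 of 27 members, beside 0.675% of genes tested, with 25 changes below 0, beside 5328 of 10670. Without replicate 3, 6 fell. Apoa5, which controls plasma triglyceride, was 16018, 15638 and 16742 at 1000 mg/kg and 6766, 8586 and 8462 at 1500 mg/kg, without overlap, and replicate 1 rather than replicate 3 was the lowest. Afm, afamin, carries vitamin E, and Apoc2 activates lipoprotein lipase. Changes were Apoa5 (-1.03 ± 0.12, 0.00342), Afm (-0.90 ± 0.14, 0.0133) and Apoc2 (-0.48 ± 0.09, 0.0324), and -1.08, -0.70 and -0.45 without replicate 3. In complement and coagulation 2 of 30 fell, C8g (-0.67 ± 0.11, 0.0151) and F12 (-0.63 ± 0.12, 0.0312), with 28 changes below 0. Without replicate 3 these were -0.65 and -0.50, and 7 members fell, among them C6, a subunit of the membrane attack complex (-1.05, adjusted p = 0.0153; -1.79, 0.0697 with all arrays). C8g was 17215, 17313 and 15507 at 1000 mg/kg and 9672, 11632 and 10238 at 1500 mg/kg. The medians of the secreted-protein and complement lists were -0.36 and -0.51, or -0.17 and -0.22 without replicate 3. Per array the complement list was -0.29, -0.18 and -1.07 relative to the 1000 mg/kg mean, lowest in replicate 3. Among acute phase proteins 2 of 22 fell, Hamp and Apcs, the serum amyloid P component (-0.95 ± 0.19, adjusted p = 0.0352; -0.65 without replicate 3). Of the 6 fits without 1 array, 6 fits kept Apoa5, 5 kept Afm (highest adjusted p 0.0816), 4 kept C8g (highest adjusted p 0.0919), 3 kept Apcs (highest adjusted p 0.142), 2 kept Apoc2 and F12 (highest adjusted p 0.146 and 0.142).

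Other genes in the 12 largest falls were Nrep, a regeneration-related protein, Arrdc3, an arrestin-domain adaptor, Samd11, Gria3, a glutamate receptor subunit, Dab1, a reelin adaptor, and Spink1, a trypsin inhibitor. Nrep was 4324, 4781 and 3925 at 1000 mg/kg and 577, 586 and 218 at 1500 mg/kg, without overlap, and it had also fallen between 0 and 1000 mg/kg (-1.64, adjusted p = 0.014). Arrdc3 was 3102, 5866 and 5147 at 1000 mg/kg and 987, 1668 and 760.0 at 1500 mg/kg, again without overlap. Their changes were Nrep (-3.31 ± 0.31, 0.00106), Arrdc3 (-2.06 ± 0.30, 0.00937), Samd11 (-2.05 ± 0.38, 0.0254), Gria3 (-1.84 ± 0.36, 0.03), Dab1 (-1.61 ± 0.30, 0.0254) and Spink1 (-1.57 ± 0.26, 0.0134). Without replicate 3 they were -2.86, -1.81, -1.55, -1.88, -1.57 and -1.25. Gria3 signals at 1500 mg/kg were 22.5, 5.11 and 15.2, low enough that the change is understated. When each array was left out, 6 fits kept Nrep, 5 kept Arrdc3 and Spink1 (highest adjusted p 0.0658 and 0.0861), 4 kept Samd11 (highest adjusted p 0.12), 3 kept Gria3 and Dab1 (highest adjusted p 0.053 and 0.111).

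Genes that passed in other groups are given here, beside 0.787% of genes tested that rose and 0.675% that fell. Aldoa, an aldolase of glycolysis, Hmox1 and Tfrc were the 3 of 23 glycolysis and hypoxia genes that rose. Bid, which promotes cell death, and Nol3, which represses it, both rose among 24 cell death genes, and Slc3a2, an amino acid transporter subunit, was the only 1 of 31 ATF4 genes that rose. Nol3 was 979, 689.7 and 1204 at 1000 mg/kg and 3361, 2239 and 2906 at 1500 mg/kg, without overlap. Gstm7, a glutathione S-transferase, and Sel1l, of the endoplasmic reticulum degradation machinery, fell. Changes were Aldoa (0.93 ± 0.15, 0.0123), Bid (0.99 ± 0.18, 0.0254), Nol3 (1.57 ± 0.26, 0.0134), Slc3a2 (1.03 ± 0.22, 0.0456), Gstm7 (-0.66 ± 0.12, 0.0247) and Sel1l (-0.67 ± 0.14, 0.0417). Without replicate 3 they were 0.75, 0.91, 1.54, 0.74, -0.60 and -0.62, and Sel1l no longer passed (adjusted p = 0.0536). At 1000 against 0 mg/kg these genes stood at 0.39, -0.14, 3.68, 0.93, -0.25 and 0.28, a comparison that shares the 1000 mg/kg arrays. Of 17 markers of preneoplastic foci 2 rose, Ggt1 and Krt8, while Gstp1, the placental glutathione S-transferase, was 1130.1, 859.6 and 3554 at 1500 mg/kg with a change of 0.93 ± 0.40, adjusted p = 0.247, or 0.32 without replicate 3. Afp, the fetal alpha-fetoprotein, Fgf21, a fasting hormone, Cdkn1a, the p53 target p21, and Cyp7a1, the rate-limiting enzyme of bile acid synthesis, did not pass, at -0.09, -0.57, 0.47 and -1.30. The sign of Afp turned without replicate 3 (0.05). Where a gene had 1 other tested probe set, it gave -4.11 for Car3, -2.37 for Arrdc3, 1.89 for Tfrc, 1.70 for Pfn2 and 0.64 for Tk1, in the same direction, and -0.14 for Cdkn1a and -0.09 for Alb, in the opposite one. With 1 array left out in turn, 5 fits kept Aldoa (highest adjusted p 0.0658), 4 kept Nol3 (highest adjusted p 0.0842), 3 kept Bid, Slc3a2 and Gstm7 (highest adjusted p 0.127, 0.175 and 0.103), 2 kept Sel1l (highest adjusted p 0.16).

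Leaving out replicate 3 brought 5 further genes among the largest changes, named by the fit without it. Hdc, histidine decarboxylase, was 954, 1144 and 152 at 1500 mg/kg and Aqp7, a glycerol channel, was 701, 721 and 311; replicates 1 and 2 were high and replicate 3 lower in both. Dhrs7l1, a short-chain dehydrogenase, was 112, 121 and 2007 and Nim1k, a kinase, was 16.4, 10.2 and 412, with replicates 1 and 2 low and replicate 3 high. Sult1c2, a sulfotransferase, was 20.3, 118 and 189. Without replicate 3 the changes of Hdc and Aqp7 were 1.73 and 1.67 (adjusted p = 0.00681 and 0.00297), and those of Dhrs7l1, Nim1k and Sult1c2 were -2.65, -2.13 and -2.60 (0.0385, 0.00681 and 0.0153). With all arrays they were 0.84, 1.28, -1.34, -0.84 and -2.08, none past the threshold.

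**Figure D4:**
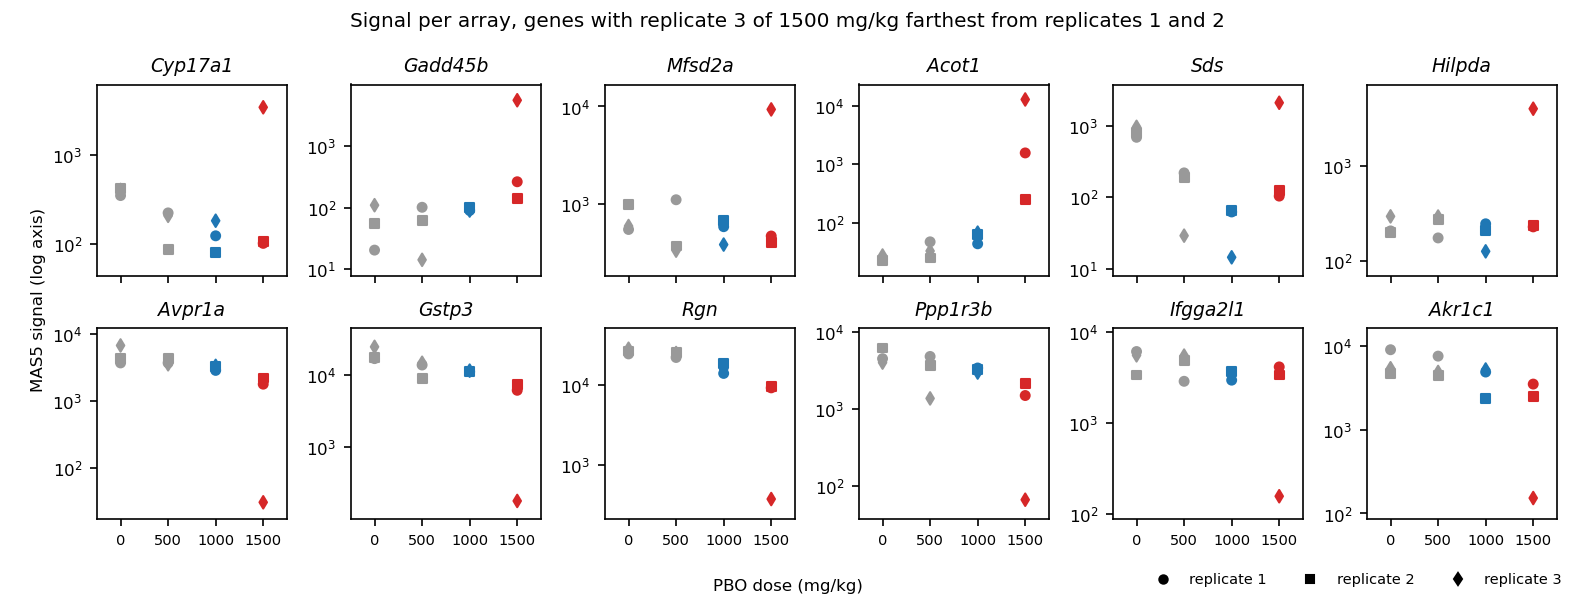
MAS5 signal per array (log axis) at each dose for the 12 tested genes in which replicate 3 of 1500 mg/kg (red diamond) lies farthest from replicates 1 and 2, 6 higher in the upper row and 6 lower in the lower row. The other 2 red points lie near the blue 1000 mg/kg points in most panels.

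The genes in which replicate 3 stood highest over replicates 1 and 2 were Cyp17a1, a steroid hydroxylase, Gadd45b, a stress-induced signalling protein, Mfsd2a, a lysophosphatidylcholine transporter, Acot1, Sds, serine dehydratase, and Hilpda, a lipid droplet protein induced by hypoxia. Cyp17a1 was 102, 108 and 3403 at 1500 mg/kg, and Gadd45b was 262, 139 and 5497. The differences of replicate 3 from the mean of replicates 1 and 2 were 4.82, 4.73, 4.37, 4.29, 4.03 and 4.02 log2, a description with no test. It stood lowest in Avpr1a, a vasopressin receptor, Gstp3, a glutathione S-transferase, Rgn, regucalcin, Ppp1r3b, which targets a phosphatase to glycogen, Ifgga2l1 and Akr1c1, an aldo-keto reductase. Those differences were -5.42, -5.09, -4.60, -4.46, -4.45 and -4.14. Igfbp1, an insulin-like growth factor binding protein, was 1842, 1572 and 11966 and Atf3, a stress-induced factor, was 138, 80.0 and 289.9, and neither passed in the step (adjusted p = 0.443 and 0.233).

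Markers of other liver cell types were set beside these results. In a bulk liver array fewer cells of a type and less RNA per cell cannot be told apart. Of 13 measured macrophage markers limma passed 0 (3 at an unadjusted p under 0.05). Among these 13, 12 had a change below 0, beside 5328 of 10670 genes tested. The median was -0.57, or -0.06 without replicate 3. Per array it was 0.33, -0.32 and -2.02 at 1500 mg/kg, and the summed signal of the list ran from 16166 to 25465 at 1000 mg/kg and from 6000.2 to 29303 at 1500 mg/kg, so the low end came from replicate 3. Clec4f, a Kupffer cell lectin, was 3236, 1946 and 729.9 there. T and NK cell markers had a median of -0.64, or -0.24 without replicate 3, and -0.20, -0.27 and -1.25 per array at 1500 mg/kg, with 0 of 9 past the test (3 unadjusted). Of 7 cholangiocyte markers 1 rose, beside 0.787% of genes tested, while 5 had a change above 0 and 2 below. The 1 that rose was the adhesion molecule Epcam, at 1714, 1395 and 1445 at 1000 mg/kg and 3803, 3038 and 3696 at 1500 mg/kg. Its groups did not overlap (1.20 ± 0.13, adjusted p = 0.00207, and 1.16 without replicate 3). The summed signal of the list was 2949.7 to 3438 at 1000 mg/kg and 4912 to 5683 at 1500 mg/kg. Most of the sum at 1500 mg/kg was Epcam itself, so the sum is not separate from that gene. Krt19, a bile duct keratin, was 0.30 ± 0.30. Of 16 endothelial markers 1 fell, beside 0.675% of genes tested, namely Kdr, a growth factor receptor (-0.54 ± 0.10, adjusted p = 0.03, and -0.55 without replicate 3). Of 21 stellate cell and matrix markers 0 passed (4 unadjusted). Below the filter or without a probe set of 1 symbol were 4 of 17 macrophage and 7 of 16 T and NK cell markers. The same held for 4 of 11 cholangiocyte, 2 of 18 endothelial and 1 of 22 stellate cell and matrix markers. Of 4 measured adipocyte markers 0 passed by limma (2 at an unadjusted p under 0.05), and their summed signal was 3595 to 5617 at 1000 mg/kg and 7667 to 14814 at 1500 mg/kg, without overlap. Most of that sum was Cidea, a lipid droplet protein, at 4148, 2701 and 4901 at 1000 mg/kg and 6574, 8873 and 14506 at 1500 mg/kg (1.31 ± 0.30, adjusted p = 0.0552). Of 4 neutrophil markers 0 passed (1 unadjusted), and their summed signal was 777 to 1018 at 1000 mg/kg and 679 to 6200.0 at 1500 mg/kg, the high end being replicate 1, in which Lcn2, the acute phase protein lipocalin 2, was at 5737. Whether the cell makeup had a part in the gene changes was not tested. The 3'/5' control ratios of Gapdh and Actb differed by -0.03 and 0.09 log2 between the doses (two-sided exact permutation p = 0.5 and 0.4, the smallest possible being 0.1), while the ratio of 3' to middle probe sets of Actb was 0.11 to 0.16 at 1000 mg/kg and 0.32 to 0.65 at 1500 mg/kg (exact p = 0.1). That of Gapdh was 0.46 to 0.49 at 1000 mg/kg and 0.41 to 0.45 at 1500 mg/kg (exact p = 0.1), so the arrays of the 2 doses did not overlap in either and differed in opposite directions. Whether RNA quality had a part in the gene changes was not tested.

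**Figure D5:**
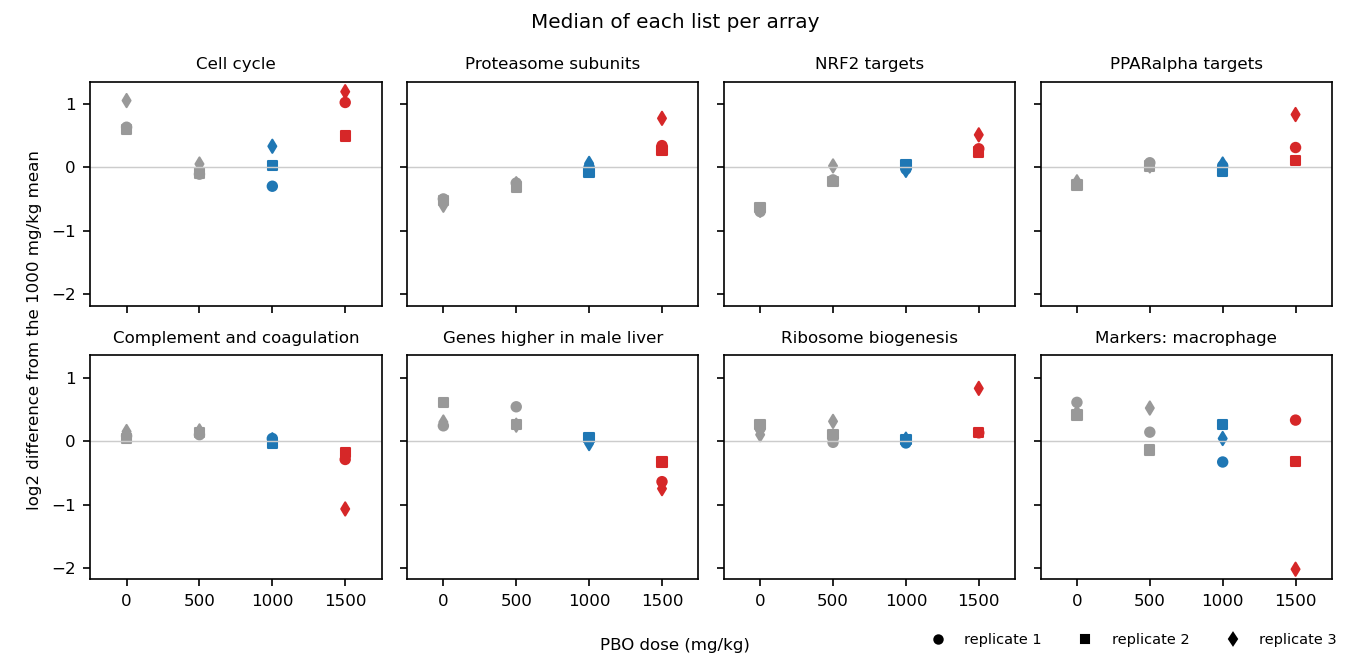
Median of each gene list per array, as a log2 difference from the mean of the 1000 mg/kg arrays (vertical), at each PBO dose (horizontal), with a marker for each replicate number. Cell cycle genes are lower at 500 and 1000 mg/kg than at 0 and 1500 mg/kg, proteasome and NRF2 genes stand higher at each dose than at 0 mg/kg, and replicate 3 is the 1500 mg/kg array farthest from 0 in each panel.

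The shape of the dose response was read from the same fit. The 114 probe sets that rose in the last step had median changes of 0.22 from 0 to 500 mg/kg, 0.15 from 500 to 1000 mg/kg and 0.97 from 1000 to 1500 mg/kg. For the 110 that fell they were -0.17, -0.14 and -0.95. These probe sets were chosen for their last step, which shares the 1000 mg/kg arrays with the step before it. Against 0 mg/kg, 581 probe sets (3.12%) passed at 1000 mg/kg, 351 higher (1.88%) and 230 lower (1.23%), and 3228 (17.3%) at 1500 mg/kg, 1504 higher (8.08%) and 1724 lower (9.26%). Across all probe sets, 2 passed between 500 and 1000 mg/kg (0.0107%), of which 1 was Stac3, a muscle-type adaptor, with signals of 5025, 3380.3 and 3347 at 500 mg/kg and 183, 176 and 627 at 1000 mg/kg; its last step of -1.50 ± 0.43, adjusted p = 0.0965 did not pass. A test of the last step minus the step before it passed 1 probe set of 18625 (0.00537%), an unnamed one, with 1141 at an unadjusted p under 0.05, so for the named genes a difference between the 2 steps was not shown by this test. Scd, the fatty acid desaturase, was 10752, 10273 and 16046 at 0 mg/kg and 86.1, 135 and 714 at 1000 mg/kg, and 0.80 ± 0.62 in the last step.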

How the data were processed

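RNA from liver was hybridised to 1-colour Affymetrix arrays, and the authors deposited 1 linear intensity value for each probe set and array. The submitters' processing notes name MAS5, with version and settings not given in the sources used here. After trimming 2% at each end, array means were 500.2 to 500.3. Probe sets that share sequence within a gene family can share signal. Of 31099 probe sets, 57 are controls, 20826 had 1 gene symbol, 436 several and 9780 none; 20758 symbols came through the Entrez identifier. The deposited intensity was transformed as log2(signal + 16), and probe sets with a mean above the 40th percentile were kept. All 12 PBO arrays were fitted with limma 3.58.1 in R 4.3.3 (lmFit, eBayes with trend, two-sided), with Benjamini-Hochberg adjustment over 18625 probe sets and a threshold of 0.05. A gene stands as its tested probe set with the highest mean.

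Members and lists were chosen with earlier results of these data known. Of 1077 listed genes, 937 matched a named probe set. Named genes were the 12 largest rises and falls with separated arrays, the 8 largest without 1500 mg/kg replicate 3, the 6 highest and lowest in that replicate, up to 4 members of each list by adjusted p, and fixed genes, of which 22 were measured. Replicate numbers do not pair the samples: the correlations of deviations between same-numbered arrays at 1000 and 1500 mg/kg were -0.072, 0.004 and -0.032. Lists carry no test of their own. Alternatives were other pseudocounts, filters, scalings, eBayes without trend, a replicate block, array weights, only the 6 arrays, and each array left out; leaving out the 0 mg/kg arrays was added after seeing the data. The scripts were checked on simulated data with normal noise, of equal spread in each array, so no array stood apart as replicate 3 of 1500 mg/kg did. There, 16%, 44%, 76% and 98% of changes of 0.5, 1, 2 and 3 log2 passed, with 2 false calls. Many changes of 2-fold or less would thus not pass, even under that simpler noise. Promoter windows are from RefSeq (GRCr8). Arrays give no counting depth, and 3 arrays per group limit the precision. Python 3.11.15 and matplotlib 3.10.9 drew the figures.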

Additional observations from a re-analysis of the deposited data

Results flagged for a closer look

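An unnamed probe set (1384357_at) changed in opposite directions in the last 2 dose steps, and the difference between the steps passed the test by limma, 3.51 ± 0.44 log2 (adjusted p = 0.0423). Its signals were 271.7, 313.2 and 337.3 at 500 mg/kg, 92.3, 49.0 and 38.7 at 1000 mg/kg, and 138.6, 179.4 and 202.5 at 1500 mg/kg. The groups did not overlap, and 1000 mg/kg was lowest. The last step was 1.37 (1.26 without 1500 mg/kg replicate 3) and the one before it -2.15. It did not pass with quantile normalization or median scaling, and of the 12 fits that each left out 1 array, only the 1 without 1000 mg/kg replicate 1 kept it.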

How the results depend on the processing

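The count of 224 probe sets became 342 with a filter at the 60th percentile, 418 with array weights, 54 by eBayes without trend and 0 with only the 6 arrays, and 13 to 924 without 1 array (1000 mg/kg replicate 2 and 1500 mg/kg replicate 2 gave the extremes). With the replicate number as a block, 185 passed, 163 of them among the 224; the numbers do not pair the samples. Other settings gave 177 to 307. The single probe set with a difference between steps did not pass (0) with a pseudocount of 1, no filter, quantile normalization, median scaling, eBayes without trend or the replicate block, and 0 to 1 passed without 1 array. In the gene lists, 43 distinct genes passed with all arrays, and 5 to 143 without 1 array: 17, 5 and 21 without 1000 mg/kg replicate 1, 2 or 3, and 40, 143 and 69 without 1500 mg/kg replicate 1, 2 or 3. Cyp1a2 turned to 0.08 with array weights and 0.12 without 1500 mg/kg replicate 3 (-0.56 to 0.12 without 1 array), Cyp3a23-3a1 to 0.06 with quantile normalization, Afp to 0.05 without 1500 mg/kg replicate 3 (range -0.28 to 0.05) and Alb to -0.01 without 1500 mg/kg replicate 2 (range -0.01 to 0.11); none of these had passed. Of the 60 named genes that passed, 48 kept the call under the block, 17 by eBayes without trend and 0 with only the 6 arrays; the cause was not tested. Of those refitted, 7 of 59 kept it without 1000 mg/kg replicate 2 and 52 of 58 without 1500 mg/kg replicate 3. Median scaling moved the median of all probe sets by 0.01 log2. Low signals limit which genes can pass, since the scale compresses them.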

Other observations

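Further genes of iron handling and BMP signalling were looked at after the values of Hamp and Tfrc were seen. Atoh8, a transcription factor known as a BMP target, was 469.6, 481 and 511 at 1000 mg/kg and 189, 228 and 196 at 1500 mg/kg, without overlap, and fell (-1.19 ± 0.16, adjusted p = 0.00845 by limma; -1.17 without 1500 mg/kg replicate 3). Id2 and Smad7, other known BMP targets, were -1.05 ± 0.25 and -1.03 ± 0.25 and missed the threshold (adjusted p = 0.0628 and 0.0642), and Bmp6, the ligand, was -0.28 ± 0.19. Id1, of the same family as Id4 and also a known BMP target, went the other way at 1.56 ± 0.48 and did not pass. The BMP targets looked at therefore did not all change in 1 direction. Slc40a1, the iron exporter ferroportin, was 2654, 3669 and 699 at 1500 mg/kg, a change of -1.04 ± 0.42 with all arrays and -0.33 without replicate 3. Steap3, a ferrireductase, and Aco1, the iron-sensing aconitase, were -1.11 ± 0.31 and 0.69 ± 0.22 and did not pass.

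Other genes that passed were also picked after their values were seen. Nr3c1, the glucocorticoid receptor, was 1849, 1964 and 1892 at 1000 mg/kg and 1191, 1328 and 819.7 at 1500 mg/kg and fell (-0.79 ± 0.17, adjusted p = 0.04; -0.59 without 1500 mg/kg replicate 3), as did Agtr1a, an angiotensin receptor (-0.74 ± 0.14, adjusted p = 0.0255; -0.62). Odc1, the first enzyme of polyamine synthesis, was 2583, 2089 and 2499.8 at 1000 mg/kg and 4136, 3697 and 3886 at 1500 mg/kg and rose (0.71 ± 0.16, adjusted p = 0.0479), but did not pass without replicate 3 (0.71, adjusted p = 0.0521). Ctsd, a lysosomal protease, rose too (0.73 ± 0.13, adjusted p = 0.0203; 0.82 without replicate 3). No groups overlapped in these 4 genes. Of the 6 fits that each left out 1 array, 5 fits kept Atoh8 (highest adjusted p 0.0507), 3 kept Nr3c1 and Ctsd (highest adjusted p 0.146 and 0.102), 2 kept Agtr1a (highest adjusted p 0.13), 1 kept Odc1 (highest adjusted p 0.181). Of 27 ribosome biogenesis genes limma passed 0 (6 at an unadjusted p under 0.05, beside 3401 of 18625 probe sets). Among these 27, 25 had a change above 0, beside 5342 of 10670 genes tested. The median of 0.37 became 0.12 without replicate 3, and per array it was 0.13, 0.14 and 0.83 above the 1000 mg/kg mean.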
